A study of Mus musculus with 17 samples.

Results

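Solid carcinomas made up 9 of the 17 mammary tumors profiled in this study, and their Wnt clusters were compared with every tumor of another histology left out. Membership followed the histological type on the sample labels, which count p110-121 among the solid carcinomas, whereas the study's figure legend does not list it there. The division into Wnt levels followed the clusters that the study drew from the expression of the Wnt ligands. The higher-Wnt group held 3 tumors, p110-225 from the high-Wnt cluster and p75-129 and p110-121 from the medium-Wnt cluster. The low-Wnt group held 6 tumors, p75-150, p75-534, p110-143, p110-314, p110-360 and p110-416. Each tumor came from a different FVB mouse. All 9 mice carried a CUX1 transgene driven by the mouse mammary tumor virus (MMTV) sequences, which are active mainly in mammary epithelium. Only tumors were compared, so each value is set against other tumors and not against normal gland. The transgene encoded the short p75 isoform in 1 higher-Wnt and 2 low-Wnt mice and the p110 isoform in 2 higher-Wnt and 4 low-Wnt mice. The ages of the mice were not given in the sources used here. Epithelial tumor cells were taken from stained sections by laser capture, and their RNA was amplified in 2 rounds and hybridized in dye swaps against a universal mouse reference RNA. Values are log2 ratios of tumor over reference, averaged over the 2 or 4 arrays of a tumor. A gene is called measured in a tumor when the scanner software set the tumor color well above background on each of its arrays.

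Wnt proteins are secreted ligands that bind Frizzled receptors together with the co-receptors Lrp5 and Lrp6. In the canonical branch, receptor binding halts the destruction complex of Apc, Axin and Gsk3, so that β-catenin enters the nucleus and switches on target genes through the TCF and LEF factors. Several of these targets, such as Axin2, Nkd1, Apcdd1, Notum, Znrf3 and Rnf43, encode feedback inhibitors of the pathway and are commonly read as signs of its activity. In the mammary gland the pathway maintains stem and progenitor cells, and its activation in mouse mammary tumors is known to accompany squamous and myoepithelial differentiation. Comparing Wnt levels within solid carcinomas therefore asks which genes go with Wnt ligand expression when the squamous histology is not part of the contrast.

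The higher-Wnt tumor p110-121 stood apart from the other 8 in its cell type markers. Elf5, a transcription factor of luminal progenitors and milk-producing cells, was at 0.08 in p110-121 and between 7.73 and 9.45 in the other 8 solid carcinomas. Csn2, which encodes β-casein, was at 0.03 against 8.98 to 10.74. The simple-epithelial keratins Krt8 and Krt18 were at -4.24 and -4.82, whereas Krt8 lay between 0.83 and 2.37 in the other 8. In contrast, macrophage and antigen-presentation genes were high in p110-121: the CSF1 receptor Csf1r was at 5.32 (other 8, -0.78 to 1.02), the class II chain H2-Aa at 5.61, its invariant chain Cd74 at 6.54 and the lysozyme Lyz2 at 7.29. The dye-swapped arrays of p110-121 gave the same picture, with Elf5 at 0.02 and 0.14, Krt8 at -4.62 and -3.86 and Csf1r at 5.72 and 4.92. This tumor had the lowest value of the 9 in 8 of 8 epithelial markers, 9 of 12 luminal markers and 9 of 11 milk genes, and the highest in 10 of 14 immune cell markers. Over all genes it was lowest in 10.9% and highest in 15.0%. Its profile correlated with those of the other 8 at r between 0.26 and 0.54 across 28572 genes (median 0.31), while the other tumors' median correlations ranged from 0.53 to 0.75. The labelled cell type, microdissected epithelial tumor cells, was therefore borne out by these markers in 8 of the 9 tumors, and the main group results are given with and without p110-121. In these samples, fewer cells of a type and less RNA per cell cannot be told apart.

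**Figure D1:**
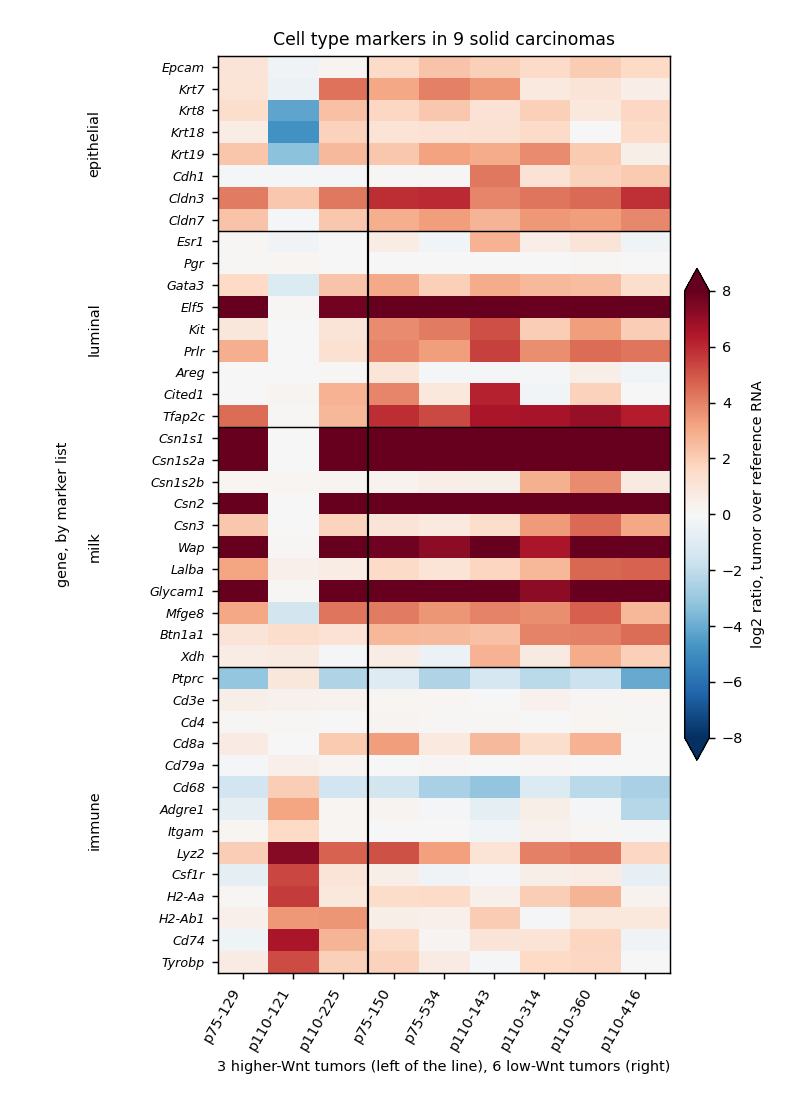
Log2 ratio of tumor over reference (color scale) for epithelial, luminal, milk and immune cell marker genes (rows, grouped by list) in each of the 9 solid carcinomas (columns), with the 3 higher-Wnt tumors left of the vertical line. In the p110-121 column most epithelial and milk genes are pale or blue, with Elf5 at 0.08 and Csn2 at 0.03, and several immune rows are the reddest of their row, with Cd74 at 6.54.

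The strength of the tumor signal varied from tumor to tumor. Of all probes, the percentage that passed background in the tumor color was 61.8 in p75-129, 28.0 in p110-121 and 22.2 in p110-225, and between 30.1 and 51.8 in the low-Wnt tumors. The group means were 37.3% ± 21.4 (SD, n = 3) and 39.3% ± 7.72 (SD, n = 6), and the difference of -1.98 percentage points gave p = 0.821 in a two-sided exact permutation test over 84 arrangements. Taking the 95th percentile of brightness in each color, the reference exceeded the tumor by 8.34 times in p110-225, while p110-121 had a ratio of 4.02, p110-143 one of 2.55 and the remaining 6 tumors 0.658 to 1.32. Because p75 and p110 tumors were scanned in different years, transgene and scan year cannot be told apart.

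The Wnt ligands were used to draw the clusters, so their values describe the groups and carry no test. Of the 19 ligands on the array, 15 had a higher mean in the higher-Wnt group, with a median difference of 0.11, beside a median of 0.02 over all genes. Only 6 of the 19 were measured in at least 5 of the 9 tumors. The most regular difference was that of Wnt6, a canonical ligand (probe at chromosome 1, 75024467 to 75024532, plus strand, mouse build mm7). Wnt6 was at 0.11 in p75-129, 0.28 in p110-121 and 0.39 in p110-225, and at -0.48, -0.24, -0.54, -0.51, -0.15 and -0.46 in p75-150, p75-534, p110-143, p110-314, p110-360 and p110-416. The groups did not overlap, and the mean difference was 0.66 (0.65 without p110-121). Over the alternative processings and fits it ran from 0.26 to 1.02. Wnt10a, another canonical ligand, was at -2.06, -3.23 and -0.93 in the higher-Wnt tumors and at -2.72, -2.64, -3.40, -5.58, -3.30 and -5.40 in the low-Wnt tumors. Here p110-121 lay among the low-Wnt tumors, and the mean difference was 1.77 with it and 2.35 without it. Wnt10a was not measured in p110-121, p110-314 and p110-416, so the lowest values rest on a signal near background.

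Other ligands were high in a single tumor. Wnt2 reached 6.31 in p110-225, the highest of all 17 tumors, with 6.52 and 6.10 on its dye-swapped arrays. In the other higher-Wnt tumors it was at 0.42 and 0.05, below the low-Wnt tumors p110-360 (2.66) and p75-534 (1.09). Wnt3 was at 2.07 in p110-121 and between -0.09 and 0.18 in the other 8, and Wnt16 was at 1.18 in p110-121 and between 0.02 and 0.62 elsewhere. Since no low-Wnt array measured Wnt3, it can only be said to be at least 1.47-fold higher in the higher-Wnt group, a bound that rests on p110-121. Thus the ligand that set each higher-Wnt tumor furthest from the low-Wnt tumors was not the same in p110-225 and p110-121. In p75-129, 13 of the 19 ligands were measured, but the mean over all 19 was 0.01, which lay within the low-Wnt range of -0.32 to 0.08, as did the mean of p110-121 at 0.06. The mean of p110-225, the high-Wnt tumor, was 0.43.

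Wnt5b ran the other way. This ligand (chromosome 6, 119458136 to 119458195, minus strand), which mainly acts outside the β-catenin branch, was at 2.02, 0.59 and 1.37 in the higher-Wnt tumors and at 3.84, 3.71, 3.12, 4.88, 3.20 and 2.89 in the low-Wnt tumors. It was measured in all 9, the groups did not overlap, and the mean difference was -2.28 (-1.91 without p110-121). Over the alternative processings and fits the difference ran from -2.94 to -1.03. Wnt6 and Wnt5b were the ligands whose groups were apart in all 9 tumors. Against the p110-143 arrays of the same scan day, which were not the same for both tumors, Wnt5b was 2.48 lower in p110-121 and 1.81 lower in p110-225.

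**Figure D2:**
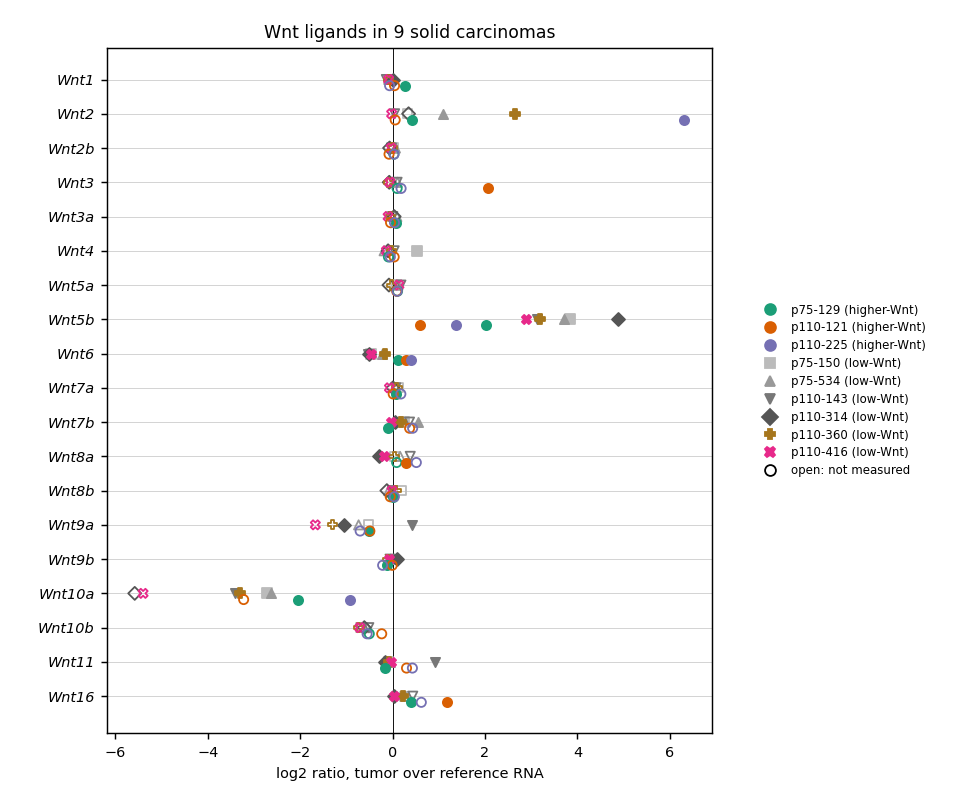
Log2 ratio of tumor over reference (horizontal axis) of the 19 Wnt ligands in the 9 solid carcinomas, with 1 symbol per tumor and open symbols where the gene was not measured. Most ligands sit near 0 in all tumors; Wnt2 in p110-225 (6.31), Wnt3 in p110-121 (2.07), and the separated groups of Wnt5b and Wnt6 stand out.

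Across all genes, few differences passed the test. Of 28572 genes, 26 (0.091%) had a limma adjusted p under 0.05, 24 of them higher and 2 lower where Wnt ligands were higher. At this share most short gene lists would hold 0 called members, so such a count says little about a list. Before adjustment, 3103 genes (10.9%) had a p under 0.05. Without p110-121, the limma test called 0 genes (smallest adjusted p = 0.127), although 1860 had a p under 0.05 before adjustment. Leaving out p110-225 also gave 0 called genes (2329 before adjustment), whereas leaving out p75-129 gave 780, so the count rested on single tumors. For each of the 26 called genes, the groups did not overlap. Over all genes, the groups were apart with higher values in the higher-Wnt tumors for 987 (3.45%) and with lower values for 455 (1.59%). Without p110-121 these numbers were 1537 (5.38%) and 883 (3.09%). Most called genes were dim. In the higher-Wnt group, 24 of the 26 were measured in 0 or 1 tumor, and 12 were measured in no low-Wnt tumor. The smallest adjusted p belonged to Prl, the gene of the pituitary hormone prolactin (difference 2.21, adjusted p = 0.0231), which was measured in 1 higher-Wnt tumor and no low-Wnt tumor. Other called genes were the neuronal genes Nrgn (1.60), Nrn1 (1.74) and Sh3gl3 (2.09), the carboxypeptidase Cpb2 (1.81) and the hypoxia-induced carbonic anhydrase Car9 (0.90).

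The genes described next were taken from 622 whose groups were apart and that were measured in at least 2 of 3 higher-Wnt or 4 of 6 low-Wnt tumors. A gene can enter this set through the group where it is high, so its number of members says nothing about the groups. Of these genes, 4 passed the test. Mlph, which encodes melanophilin, an adaptor that links vesicles to the actin motor (chromosome 1, 90854759 to 90854818, plus strand), was measured in all 6 low-Wnt tumors, at 2.59, 2.56, 3.11, 2.09, 1.95 and 2.45. In the higher-Wnt tumors it was at 0.67, -0.08 and 0.33, measured only in p75-129. Its difference was -2.15 (SE 0.27, adjusted p = 0.0460), and -1.96 without p110-121. The transcript ENSMUST00000094445 was at 1.14 to 2.55 in the low-Wnt tumors and at -0.07, -0.01 and -0.50 in the higher-Wnt tumors (difference -2.19, SE 0.28, adjusted p = 0.0478). It was measured in all 6 low-Wnt tumors but in no higher-Wnt tumor, so it entered the set through the low-Wnt group. Ppef2, a calcium-dependent phosphatase known from photoreceptors, was at 0.26, 0.36 and -0.14 in the higher-Wnt tumors and between -1.43 and -0.98 in the low-Wnt tumors (difference 1.41, SE 0.14, adjusted p = 0.0329). The transcript 3110039M20Rik was the other one to pass, with a difference of 2.12 (adjusted p = 0.0422), and was measured in 2 higher-Wnt tumors and 1 low-Wnt tumor. Without p110-121 the differences of the latter 3 were -2.29, 1.31 and 2.13.

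Next in order of p came genes at an adjusted p of 0.0541, just outside the threshold. Fosb, an immediate-early transcription factor of the AP-1 family, was at 0.31, 0.69 and 0.48 in the higher-Wnt tumors and at -0.50 to -0.20 in the low-Wnt tumors, a difference of 0.76. Mef2b, a transcription factor known from muscle and germinal-center B cells, differed by 1.39. Ankrd1, a well-known target of the YAP coactivator, differed by 1.66, but was measured in only 1 low-Wnt tumor. In the other direction, the microtubule-associated protein gene Map2 was at 0.99, 0.83 and 1.12 in the higher-Wnt tumors and at 2.35, 2.62, 2.30, 3.47, 2.86 and 2.88 in the low-Wnt tumors. Map2 was measured in all 9 tumors and differed by -1.77 (-1.69 without p110-121). Klhl2, a substrate adaptor of a ubiquitin ligase, differed by -0.79, and the vesicle-tethering gene Vps16 by -0.72.

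**Figure D3:**
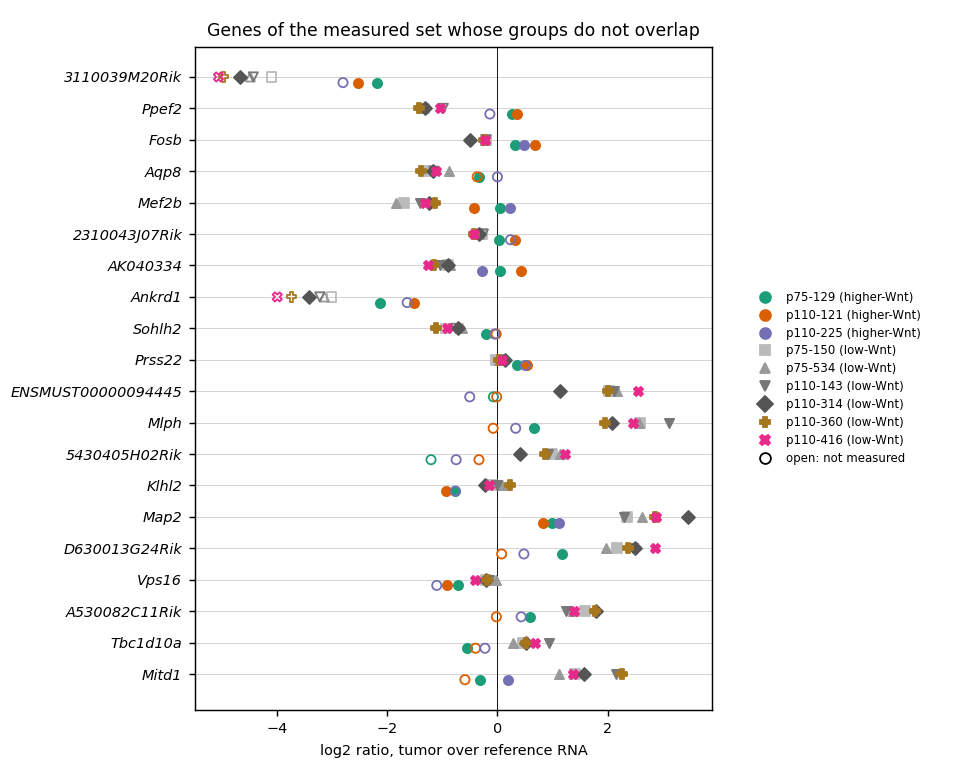
Log2 ratio of tumor over reference (horizontal axis) for the 20 genes chosen among those with signal and with groups that do not overlap, with 1 symbol per tumor and open symbols where the gene was not measured. The upper 10 genes are higher and the lower 10 lower in the higher-Wnt tumors p75-129, p110-121 and p110-225; Ppef2, 3110039M20Rik, Mlph and ENSMUST00000094445 passed the test.

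Glis1, a zinc-finger transcription factor of the Gli-similar family (chromosome 4, 107011376 to 107011435, plus strand), was at -1.52, -0.96 and -0.94 in the higher-Wnt tumors and at -2.53, -2.62, -2.00, -2.64, -2.90 and -2.48 in the low-Wnt tumors. The groups did not overlap, and the difference was 1.39 (SE 0.21, adjusted p = 0.0541), which did not pass over all genes. Without p110-121 it was 1.30, with median centering 0.83, and from the tumor color without the reference 0.14. Glis1 was measured in only 2 of the 9 tumors, p75-129 and p110-416, so most of these ratios compare a dim tumor signal with a brighter reference. Against the p110-143 arrays of the same scan day, which were not the same for both tumors, Glis1 was 1.31 higher in p110-121 and 0.79 higher in p110-225. The study singled out Glis1 and the EMT genes described next on these same tumors, so their direction here is not independent evidence. Of the 14 Gli, Glis and Hedgehog genes, 9 had a higher and 5 a lower mean in the higher-Wnt group (median 0.03), and none passed. Glis1 was the member with groups apart, beside 3.45% of all genes apart with higher values. The related gene Glis2 differed by -0.67, and Glis3 was measured in none of the tumors. Cux1, which encodes the Cut homeobox factor of which the transgenes are short forms, was at -1.05, -1.28 and -0.83 in the higher-Wnt tumors and at -1.85, -1.31, -2.03, -1.64, -1.67 and -0.48 in the low-Wnt tumors. The ranges overlapped because p110-416 had the highest value of the 9, and the difference of 0.44 did not pass (adjusted p = 0.650) and was -0.20 with median centering. Whether the Cux1 probe also reads the transgene was not given in the sources used here. Among the other Cut-domain genes, the chromatin organizer Satb1 was at 0.05, -0.05 and 0.03 in the higher-Wnt tumors and between 0.09 and 3.13 in the low-Wnt tumors (difference -1.27, adjusted p = 0.481).

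Ligand secretion and reception showed no difference that passed the test, which 0.091% of all genes did. Porcn, the enzyme that attaches the lipid needed for Wnt secretion, differed by 0.54, and Wls, the carrier that brings Wnt proteins to the surface, by -0.41 (0.19 with the mean of its probes). Of 19 receptors and co-receptors, 8 had a higher and 11 a lower mean in the higher-Wnt group, with a median of -0.13, and 7 had an unadjusted p under 0.05 (10.9% of all genes). Without p110-121, 10 were higher and 9 lower, with a median of 0.0017, and 1 had such a p. Lgr4, a receptor for R-spondins, was the one with groups apart, beside 1.59% of all genes apart with lower values. It was at 0.72, -0.55 and 0.15 in the higher-Wnt tumors and at 0.91, 2.09, 2.20, 1.03, 3.65 and 1.77 in the low-Wnt tumors (difference -1.83, adjusted p = 0.353; -1.51 without p110-121). Its relative Lgr5, an adult stem cell marker, was measured in p75-150 (1.31) and p110-143 (3.41) alone among the 9. Fzd10 was at 4.90 in p110-416 and at most 2.39 in the other 8. Ror2, a receptor of Wnt5-type ligands, was at 0.82, 1.51 and 1.95 in the higher-Wnt tumors and at -0.06 to 1.08 in the low-Wnt tumors (difference 0.98, adjusted p = 0.331).

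Several genes shared a pattern that followed the brightness of the reference color. The co-receptor gene Lrp5 was at 3.33 in p110-121, 3.52 in p110-225 and 2.13 in p110-143, and between 0.13 and 1.60 in the other 6 tumors. Fzd5 was at 3.50, 3.99 and 1.74 in the same 3 tumors, the Dishevelled gene Dvl2 at 3.33, 3.53 and 2.23, the transcription factor Prox1 at 3.51, 3.55 and 1.98, and E2f1 at 3.44, 3.45 and 2.16. The class II gene H2-Ab1 (3.48, 3.54 and 2.01) and the smooth-muscle myosin gene Myh11 (3.43, 3.49 and 2.00) belonged to the same set. These 3 tumors had the brightest reference color relative to the tumor color (4.02, 8.34 and 2.55 times). The part of brightness in these ratios was not tested, and the differences of these genes, from 1.65 for Lrp5 to 1.97 for Fzd5, did not pass.

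Inhibitors and the intracellular relay also had 0 members that passed in limma, beside 0.091% of all genes. Of 14 secreted antagonists, 6 had a higher and 8 a lower mean (median -0.08), and 1 had an unadjusted p under 0.05. The antagonists had their highest values in different tumors, 3 of 14 in the higher-Wnt tumor p110-225 and 3 in the low-Wnt tumor p110-314. Sfrp1 was at 4.45 in p110-314, 3.89 in p110-360 and 3.09 in p75-150, Sfrp4 at 3.27 in p75-150, and Sostdc1 at 5.74 in p75-534. In the higher-Wnt tumors Sfrp1 was at 0.61, -0.24 and 1.99, within the low-Wnt range of -0.55 to 4.45. Of the 11 genes of β-catenin and its destruction complex, 4 had a higher and 7 a lower mean (median -0.03), and 3 had an unadjusted p under 0.05, against 0 without p110-121 and 10.9% of all genes. The β-catenin gene Ctnnb1 was at 0.35, -0.95 and -1.67 in the higher-Wnt tumors and at -0.59 to 1.44 in the low-Wnt tumors, a difference of -0.93 (adjusted p = 0.585) that was -0.47 without p110-225 and -1.48 without p75-129. Apc, the scaffold of the destruction complex, differed by -0.77 (-2.60 to -0.014 over the alternative processings and fits) and Dvl1 by -0.79 (-1.42 to -0.28). Among the 11 TCF, LEF and Groucho factors (7 higher, 4 lower, median 0.10, 2 with an unadjusted p under 0.05; without p110-121, 5 higher, 6 lower, median -0.013), Tcf7l2 was lower by 1.42 without passing (adjusted p = 0.327). Lef1 was measured in p110-416 alone, so that no fold between the groups is given for it.

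The target genes of the β-catenin branch were not, as a list, higher in the higher-Wnt solid carcinomas. Of 22 targets tested, 12 had a higher and 10 a lower mean, with a median of 0.03. Limma called 0, beside 0.091% of all genes, and 3 had an unadjusted p under 0.05. Without p110-121 the numbers were 11 and 11, with a median of -0.08. Ephb2 and Bmp4 were the members with groups apart, at differences of 0.68 and 0.54, beside 3.45% of all genes apart in this direction and 10.9% with an unadjusted p under 0.05. However, Ephb2 was measured in none of the 9 tumors and Bmp4 in p75-129 alone. Sp5, a direct target, was at 0.76, 0.06 and 1.04 in the higher-Wnt tumors and at -0.07 to 0.83 in the low-Wnt tumors. The proliferation genes Myc and Ccnd1 differed by -0.54 and -0.62.

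Several feedback targets, Axin2, Nkd1 and Apcdd1 among them, were highest in a low-Wnt tumor, p110-416. These genes were singled out after their values were seen. Axin2 was at 4.73 in p110-416, with 4.20 and 5.27 on its arrays, and between -1.36 and 0.17 in the other 8 solid carcinomas, where it was not measured. Nkd1, an inhibitor of Dishevelled, was at 5.17 (other 8, -1.42 to 0.64), and Apcdd1, a membrane-bound Wnt inhibitor, at 4.72 (other 8, -2.32 to -1.12). The ubiquitin ligases that remove Frizzled receptors were also highest there, Rnf43 at 4.48 and Znrf3 at 0.68, as were the secreted Wnt deacylase Notum at 1.04, the metalloproteinase Mmp7 at 3.69 and the TNF receptor family member Tnfrsf19 at 4.30. Of the 22 targets, 7 had their highest value of the 9 in p110-416, 4 in p110-225 and 4 in p75-534, beside shares over all genes of 11.3%, 15.1% and 11.4%. In p75-534, Nkd2, the paralog of Nkd1, was at 5.94 (3.02 in p110-416). The Axin2 and Nkd1 values of p110-416 were the highest of all 17 tumors. In the high-Wnt adenosquamous carcinomas p75-47, p75-80 and p75-94, Nkd1 was at 2.86, 2.49 and 3.62, Apcdd1 at 2.24, 3.97 and 5.28, Mmp7 at 3.74, 4.69 and 4.20, and Axin2 at 0.00, 0.82 and 1.01. Sp5 was at 4.12 in p75-80 and 6.11 in p75-94, but at -0.07 and not measured in p110-416. None of the 19 ligands had its highest value of the 9 in p110-416, and Wnt6 (-0.46) and Wnt10a (-5.40, not measured) were low there. Amer2, which encodes a membrane recruiter of Apc, was at 5.59 in p110-416 and at most 0.30 in the other 8. As a group, the 3 higher-Wnt solid carcinomas lacked this pattern: Axin2 was at 0.01, -0.45 and -0.20, Nkd1 at 0.64, -0.53 and 0.47, and Apcdd1 at -1.69, -1.20 and -1.12. Tnfrsf19 was an exception in p75-129, at 3.31. No higher-Wnt array measured Axin2, and its difference between the groups did not pass (limma adjusted p = 0.858).

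**Figure D4:**
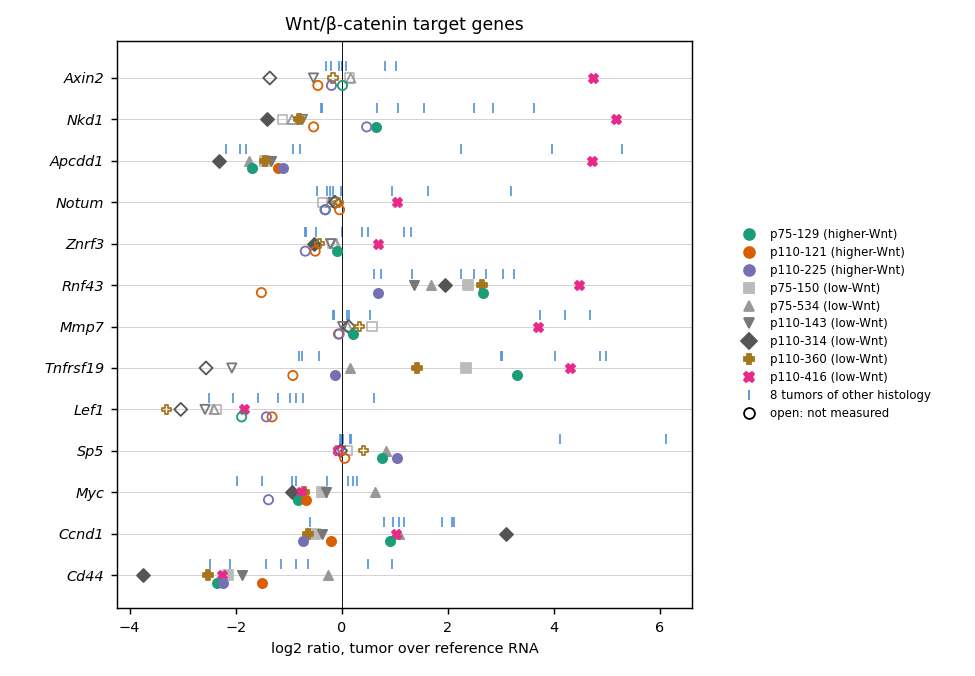
Log2 ratio of tumor over reference (horizontal axis) of 13 β-catenin target genes, with 1 symbol per solid carcinoma (open where not measured) and short blue ticks for the 8 tumors of other histology. The low-Wnt tumor p110-416 lies at 4.73 for Axin2, 5.17 for Nkd1 and 4.72 for Apcdd1, to the right of the 3 higher-Wnt solid carcinomas.

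Promoter sequence was examined for 7 of the targets that were high together in p110-416, namely Axin2, Nkd1, Rnf43, Znrf3, Notum, Mmp7 and Tnfrsf19. Apcdd1 was not looked up here. RefSeq promoter windows of build GRCm38.p6 were at hand for 5 of them, with 8 start sites in all. The windows of 250 bases before the start were searched on both strands for CTTTGAA and CTTTGAT, letters that TCF and LEF factors are known to bind. The letters were found before 2 of the 8 starts, 1 of Tnfrsf19 and 1 of Mmp7, and in 2457 of 32851 promoter windows of the same length (7.48%). A match is a description of the sequence and does not mark a bound site. The window of Tnfrsf19 with a match (chr14:61037988-61038237, minus strand, with the reverse complement of CTTTGAT in capitals, 202 bases before the start) and the window of Axin2, which had none (chr11:108920099-108920348, plus strand), are given 5′ to 3′ as an example of each.
Tnfrsf19: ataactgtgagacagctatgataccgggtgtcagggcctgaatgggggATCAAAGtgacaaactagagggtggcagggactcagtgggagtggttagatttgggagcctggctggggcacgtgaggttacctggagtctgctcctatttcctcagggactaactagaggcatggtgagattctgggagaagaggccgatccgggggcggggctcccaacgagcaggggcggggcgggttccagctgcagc
Axin2: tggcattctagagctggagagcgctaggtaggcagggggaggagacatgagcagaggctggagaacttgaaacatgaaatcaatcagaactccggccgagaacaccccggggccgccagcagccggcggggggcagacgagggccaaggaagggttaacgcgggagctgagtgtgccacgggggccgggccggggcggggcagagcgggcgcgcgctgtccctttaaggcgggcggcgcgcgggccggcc

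In the transition from epithelial to mesenchymal cells (EMT), junction proteins are lost and mesenchymal traits gained. All 9 genes that rise in EMT had a higher mean in the higher-Wnt group (median 0.71, but 0.0096 from the tumor color without the reference) and all 11 genes that fall had a lower mean (median -1.56). Of the 9 that rise, 5 were measured in at least 5 of the 9 tumors, and the median of 0.71 is the value of Twist1, which was measured in 1 tumor, so this count and median rest in part on probes near background. The limma test called 0 members of either list, beside 0.091% of all genes. An unadjusted p under 0.05 was found for 2 of 9 and 5 of 11, beside 10.9% of all genes. Over all genes tested the median was 0.02, and 15872 of 28572 were higher. Without p110-121, 8 of 9 were higher (median 0.44) and 11 of 11 lower (median -0.89). Within the p110 tumors the medians were 1.12 and -1.55. In the p75 tumors, with p75-129 alone against 2 low-Wnt tumors, they were -0.29 and -0.62, so the genes that rise in EMT did not keep their direction there. The mean over the 11 genes that fall was 1.43 in p75-129, 0.09 in p110-121 and 1.18 in p110-225, all below the low-Wnt range of 1.81 to 2.30. Of these 11, 9 were measured in p75-129, 1 in p110-121 and 5 in p110-225, against 8 to 10 in each low-Wnt tumor. Part of the fall thus sets probes near background against measured ones.

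The junction genes were the more regular side of this pattern, though most were not measured in p110-121 or p110-225. Epcam, an epithelial adhesion molecule, was at 1.04, -0.27 and 0.20 in the higher-Wnt tumors and at 1.51, 2.26, 1.89, 1.53, 2.04 and 1.57 in the low-Wnt tumors. The groups were apart with a difference of -1.48 (SE 0.29, adjusted p = 0.125), and of -1.18 without p110-121. Epcam was measured in all 6 low-Wnt tumors but in p75-129 alone of the higher-Wnt tumors. Cldn7, a tight junction claudin, was at 2.26, -0.07 and 2.17 against 2.71 to 3.85 (difference -1.81, and -1.05 without p110-121). Cdh1, which encodes E-cadherin, was at -0.07, -0.12 and -0.06 in the higher-Wnt tumors, where no array measured it, and at 0.07, 0.08, 4.23, 1.19, 1.82 and 2.08 in the low-Wnt tumors. The p75 low-Wnt tumors thus lacked a measured Cdh1 as well, and the low-Wnt mean was at least 2.60-fold higher (adjusted p = 0.517). Ocln, which encodes occludin, was at 0.67, -0.01 and 0.11 against 0.52 to 1.24 (difference -0.60, adjusted p = 0.361). It, too, was measured in p75-129 alone of the higher-Wnt tumors. The splicing regulator Esrp2 differed by -2.15.

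Among the mesenchymal genes shown, Vim lost its direction without p110-121. Vim, the gene of the intermediate filament vimentin, was at -5.79 in p75-129, -1.74 in p110-121 and -2.52 in p110-225, and between -5.78 and -3.21 in the low-Wnt tumors. The difference of 0.72 (SE 0.91, adjusted p = 0.805) turned to -0.082 without p110-121, and to -0.28 with arrays scaled to one spread. Snai2 differed by 1.04 (adjusted p = 0.776), 1.15 without p110-121, 0.58 without p75-129 and 0.36 without p110-416, and its lowest values, -5.69 and -3.53, were those of the low-Wnt tumors p110-416 and p110-314. Zeb2 was at 0.71 in p110-121 and between -3.69 and -1.04 in the other 8. Cdh2, the gene of N-cadherin, was measured in none of the 9 tumors, and Snai1 and Twist1 on no array of the higher-Wnt tumors. No fold is given for these genes. Without the reference color, the differences of Snai1 and Cdh2 turned to -0.52 and -0.16, and from the scanner's own processed signals those of Snai1 and Twist1 were -1.37 and -0.081. Immune markers, with a mean over 14 genes of 2.99 in p110-121 and of -0.50 to 0.98 in the other 8, and fibroblast markers, with means over 11 genes of -3.57 in p110-416 and -2.24 in p75-129 and of -1.24 to 0.79 elsewhere, moved with Vim, and their part in the EMT values was not tested.

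**Figure D5:**
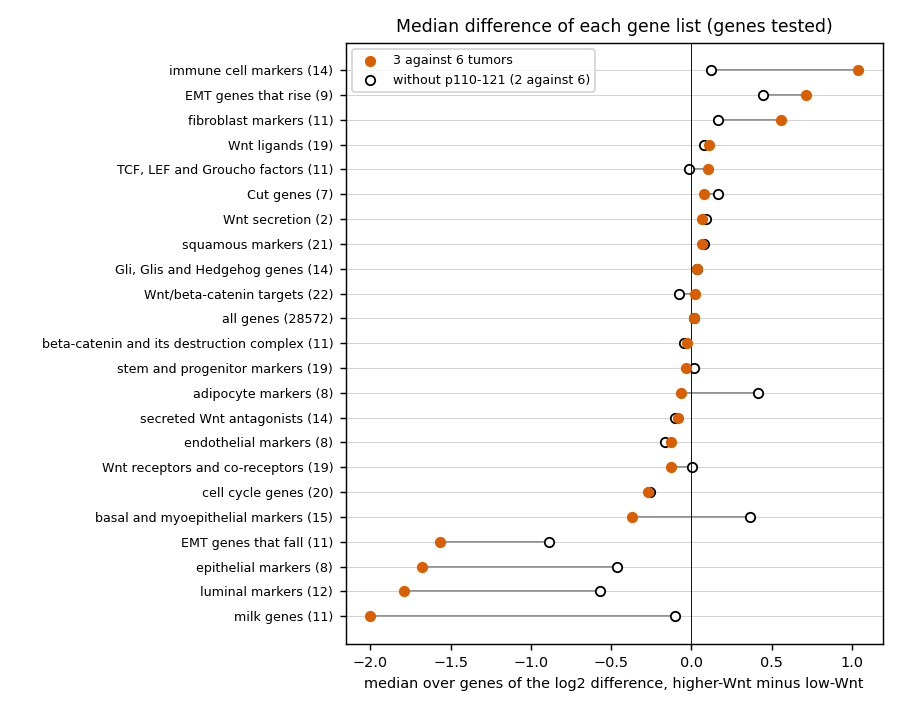
Median over the tested genes of each list of the log2 difference, higher-Wnt minus low-Wnt, with all 9 tumors (filled) and without p110-121 (open); the number of genes tested is in parentheses. The milk gene median moves from -2.00 to -0.10 and the immune cell median from 1.04 to 0.12 when p110-121 is left out, and that of the EMT genes that fall moves from -1.56 to -0.89.

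Epithelial identity genes were lower in the higher-Wnt group with p110-121, and in part without it. All 8 epithelial markers had a lower mean (median -1.68), as did 11 of 12 luminal markers (median -1.79) and 11 of 11 milk genes (median -2.00). Limma called 0 members of these lists, beside 0.091% of all genes. An unadjusted p under 0.05 was found for 3 of 8, 3 of 12 and 1 of 11, beside 10.9% of all genes. Without p110-225 the luminal and milk medians were -2.84 and -3.00, and without p110-121 the 3 medians were -0.46, -0.57 and -0.10, and 3 of 8, 3 of 12 and 5 of 11 members were higher. In p75-129 and p110-225, Krt8, Csn2 and the whey acidic protein gene Wap were within or above the low-Wnt range. Krt8 was at 1.43 and 2.37 there (low-Wnt, 0.83 to 2.18), Csn2 at 9.94 and 10.74 (low-Wnt, 8.98 to 10.64) and Wap at 8.42 and 8.41 (low-Wnt, 6.51 to 8.27). Not all members did so: the casein gene Csn1s2b was below every low-Wnt tumor in both and was not measured in p110-225.

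Groups were apart with lower values for 3 of 12 luminal markers and 2 of 11 milk genes, beside 1.59% of all genes. Of these, the casein gene Csn1s2b differed by -1.25 (limma adjusted p = 0.619) and was measured in 1 higher-Wnt and 3 low-Wnt tumors. Kit, the receptor that marks luminal progenitors, was at 0.90, -0.04 and 1.03 in the higher-Wnt tumors and at 3.80, 4.18, 5.16, 1.98, 3.34 and 1.94 in the low-Wnt tumors (difference -2.77, SE 0.73, adjusted p = 0.255). Prlr, the prolactin receptor gene, was at 2.90, 0.03 and 1.24 against 3.88, 3.33, 5.49, 3.70, 4.44 and 4.28 (difference -2.80, adjusted p = 0.191). Tfap2c, which encodes the AP-2γ transcription factor, was at 4.46, 0.07 and 2.68 against 5.92, 5.31, 6.51, 6.61, 6.96 and 6.31 (difference -3.86, SE 0.84, adjusted p = 0.163). Btn1a1, a protein of the milk fat globule, was at 1.01, 1.39 and 1.17 against 2.33 to 4.49 (difference -2.16, adjusted p = 0.206). None of these genes passed over all genes. Without p110-121 the differences of Kit, Prlr, Tfap2c and Btn1a1 were -2.43, -2.12, -2.70 and -2.26. From the tumor color without the reference, that of Btn1a1 turned to 0.24. Against the p110-143 arrays of its own scan day, p110-225 was lower by 4.31 for Kit and 3.89 for Tfap2c. Against those of another day, p110-121 was lower by 5.01 and 6.38. Kit was not measured in either tumor and Tfap2c not in p110-121, so only the 3.89 compares measured signals. Prlr was not measured in p110-121, nor Btn1a1 in p110-225.

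Basal markers overlapped between the groups, and 2 of the 21 squamous genes had groups apart, beside 3.45% of all genes apart with higher values. Of 15 basal and myoepithelial markers, 6 had a higher mean (median -0.37), and without p110-121 8 did (median 0.37). The basal keratin Krt5 was at 4.85 in p75-129 and 7.56 in p110-225, but at -0.10 in p110-121. Among the low-Wnt tumors it was high in p75-150, p75-534, p110-143 and p110-360 (6.41 to 7.22) and low in p110-314 (0.36) and p110-416 (0.45). The basal factor Trp63 followed the same division, with -0.18 in p110-121, -1.14 in p110-314 and -1.54 in p110-416 and 1.94 to 5.12 in the other 6. Acta2 and Tagln, contractile genes of myoepithelial and other smooth-muscle-like cells, were apart without p110-121 only: at 1.34 and 1.56 for Acta2 in p75-129 and p110-225, against -4.61 to 0.57 in the low-Wnt tumors. Squamous genes, with 16 of 21 higher and a median of 0.07, included 8 with signal in 5 or more of the 9 tumors, and 4 of the 21 had an unadjusted p under 0.05, beside 10.9% of all genes. Sprr1a, a cornified envelope protein gene, was at -2.03, -1.86 and -1.38 in the higher-Wnt tumors and at -3.74 to -2.76 in the low-Wnt tumors (difference 1.39, SE 0.23, adjusted p = 0.0771), so its groups were apart, as were those of Sprr1b, which was measured in p75-129 alone. Krt16 was at 2.88 in p110-225 and between -0.46 and 0.73 in the other 8.

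Immune markers separated p110-121 rather than the groups. Of 14 tested, 12 had a higher mean in the higher-Wnt group (median 1.04), and without p110-121 9 did (median 0.12). The mean over the 14 genes was 2.99 in p110-121, -0.15 in p75-129, 0.98 in p110-225 and between -0.50 and 0.87 in the low-Wnt tumors. The T cell genes Cd3e and Cd4 were below 0.5 in every tumor, whereas Cd8a was at 0.69, -0.05 and 2.11 in the higher-Wnt tumors and at -0.06 to 3.37 in the low-Wnt tumors (difference -0.90). The 4 genes furthest above the other 8 in p110-121 were cathepsin G (Ctsg, a granule protease) at 7.57, the thymosin gene Tmsb15a at 6.39 and the chemokine genes Ccl12 at 7.67 and Ccl2 at 2.23. For fibroblast markers, 9 of 11 had a higher mean (median 0.56; 0.17 without p110-121), with opposite medians of 1.78 within the p110 and -1.63 within the p75 tumors. The mean over these 11 genes was lowest in p110-416 (-3.57) and p75-129 (-2.24) and highest in p110-225 (0.79). Endothelial markers had a median of -0.13 (2 of 8 higher) and adipocyte markers of -0.06 (3 of 8 higher). Cidec, a lipid droplet gene of adipocytes, was at 8.08 in p110-225 and 0.01 in p75-129, and in the low-Wnt tumors it spanned 0.04 to 8.00.

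With the exception of Kit, stem cell and proliferation genes also overlapped between the groups. Of 19 stem and progenitor markers, 9 had a higher mean (median -0.03). Kit, described above, was the member with groups apart, beside 1.59% of all genes apart with lower values. Sox9 was at 1.77, -1.96 and 2.10 in the higher-Wnt tumors and at -3.45 to 3.26 in the low-Wnt tumors, with the lowest value in p110-416. Of 20 cell cycle genes, 7 had a higher mean (median -0.27; -0.26 without p110-121). Their mean was -1.03, -1.33 and -1.57 in the higher-Wnt tumors and spanned -2.51 (p110-143) to -0.03 (p110-314) in the low-Wnt tumors. The marker of cycling cells Mki67 was at -1.23, -1.51 and -2.33 against -3.54 to 0.24. Within each of these lists limma called 0 members, beside 0.091% of all genes. An unadjusted p under 0.05 was found for 2 of 19 and 1 of 20, no more than the 10.9% of all genes.

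To ask whether any difference was particular to solid carcinomas, the Wnt contrast was compared with that of the 8 other tumors, of which 7 were high- or medium-Wnt and 1 (p75-101) low-Wnt. This fit therefore rests on an arm of 1 tumor, which is assumed to vary like the other groups. It cannot settle whether a difference is particular to solid carcinomas. The interaction term passed for 34 of 28561 genes (0.119%), and 1058 had a p under 0.05 before adjustment. For these 34, the median absolute difference was 0.0671 in the solid carcinomas and 0.968 in the other tumors, so the calls lie mostly outside the solid carcinomas, where p75-101 is the only low-Wnt tumor. Of the 34, 26 were measured in 3 or fewer of the 17 tumors. Gm6583, with the smallest adjusted p of 3.46e-09, was measured in 1 of the 17 tumors. Without p110-121, 21 genes passed. Of the genes named by rule, the transcript 5430405H02Rik, chosen through the low-Wnt solid carcinomas where it is high, alone passed, and with median centering, where 9 genes passed and 0 of them had a more negative difference (534 had an unadjusted p under 0.05 in limma), it did not. This transcript was at -1.20, -0.33 and -0.75 in the higher-Wnt and at 0.42 to 1.23 in the low-Wnt solid carcinomas, a difference of -1.69, whereas in the other tumors the difference was 2.00 (interaction -3.68, adjusted p = 0.0192). No higher-Wnt array measured it, so the -1.69 is taken against values near background. The interaction did not pass for Glis1 (0.27, unadjusted p = 0.711 in limma), with differences of 1.39 in solid carcinomas and 1.12 in the other tumors, nor for Mlph (-1.17), Cdh1 (-2.26), Epcam (-0.62) or Kit (-1.39), whose unadjusted p-values were 0.253, 0.137, 0.367 and 0.278.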

How the data were processed

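Each of the 17 tumors was hybridized on 2 or 4 Agilent whole mouse genome arrays against universal mouse reference RNA, with the dyes swapped, and the 9 solid carcinomas took 22 arrays. Per the file headers, the authors read the spots with Feature Extraction 9.5.3.1, and the deposited scanner files hold mean spot intensities and median local background intensities of both colors. The authors' own log2 ratios in the deposited value table were background-corrected, loess-normalized and averaged per tumor. The values here were computed from the intensities with limma 3.58.1 in R 4.3.3. The background was corrected by normexp with an offset of 50, control spots and outlier spots (0.545%) were dropped, loess was run within each array, ratios were turned to tumor over reference with the dye given for each array, and arrays were averaged per tumor. The same steps with control and outlier spots kept gave the authors' table to within 4.98e-08 over all probes and tumors. The probe with the highest mean brightness stood for a gene. Of 41174 probes, 22951 were named through a RefSeq accession and the rest kept the name in the scanner file, which gave 28770 genes. The 28572 with a value in all 9 tumors were tested.

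Histological types came from the sample labels and Wnt clusters from the study. The higher-Wnt and low-Wnt solid carcinomas were compared with limma (lmFit and eBayes) on log2 ratios of the 9 tumors, with p-values adjusted by the Benjamini-Hochberg method over all genes. The interaction was fitted over all 17 tumors, and single values were compared by a two-sided exact permutation test, whose smallest p is 0.0119. The fits were tested on simulated data with known differences. The precision is limited by the number of tumors. Where no array of a group measured a probe, the fold is a bound, computed per color as the mean brightness of the bright group over the dim group's mean of the higher of its own signal and the lowest signal among probes above background. This brightness leaves out the reference, so a bound is given only where it runs the same way as the difference in ratios and does not exceed it. No genes were compared with one another by level. Dye effects were balanced by the swaps.

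The members and gene lists were chosen with earlier results of these data known. Named genes were the Wnt ligands, Glis1, the EMT genes singled out by the study, Ctnnb1 and Cux1, up to 3 genes of smallest p from each list, and 10 genes per direction of smallest p, called genes first, among those with groups apart and measured in at least 2 higher-Wnt or 4 low-Wnt tumors. Other named genes were chosen after their values were seen. Alternatives changed the background correction, centering, scaling, probe choice, filter, dye, fit, blocks and covariates, and left out each tumor in turn.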

Additional observations from a re-analysis of the deposited data

Results flagged for a closer look

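In the Wnt ligands, the genes named by rule and the feedback targets high in p110-416, the 6 low-Wnt values were searched for a tumor at the end of the range whose gap to its nearest neighbor, divided by the range, exceeded Dixon's 95% critical value. Of 110 genes searched, 14 held such a tumor. The 1 in 20 expected by chance applies only to genes chosen without regard to their values. Some of these genes, the targets high in p110-416 among them, were chosen with their values known. The count is therefore a description and is not set against that rate.

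The tumor p110-416 accounted for 7 of the 14. It had the highest low-Wnt values of the Wnt targets Axin2 (4.73, nearest 0.17), Nkd1 (5.17, nearest -0.74), Apcdd1 (4.72, nearest -1.33), Notum (1.04, nearest -0.07), Mmp7 (3.69, nearest 0.57) and Znrf3 (0.68, nearest -0.11). It also had the lowest value of Vim (-5.78, nearest -4.02).

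The other 7 were spread over 5 tumors. Among ligands, Wnt4 was at 0.52 in p75-150 (nearest 0.03), Wnt9b at 0.090 in p110-314 (nearest -0.04) and Wnt11 at 0.93 in p110-143 (nearest -0.04). The secreted antagonist gene Frzb was at 1.39 in p75-534 (nearest 0.52). The cornified envelope gene Lor was at 0.46 in p110-360 (nearest -0.17), the adipocyte hormone gene Retn at 1.89 in p110-143 (nearest 0.46) and Fosb, in the other direction, at -0.50 in p110-314 (nearest -0.24).

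For 5430405H02Rik the interaction between Wnt contrast and histology was -3.68 (limma adjusted p = 0.0192). One side of this value rests on a single low-Wnt tumor, p75-101, the gene was chosen through the low-Wnt solid carcinomas, where it was measured, and it did not pass with median centering.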

How the results depend on the processing

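The number of called genes depended on the processing and on single tumors. Against 26, it was 0 with no background correction, with median centering, with arrays scaled to one spread, with a filter on dim probes, with the tumor in Cy5 alone or Cy3 alone and with trend and robust eBayes, where limma gave 1281 to 3127 genes with a p under 0.05 before adjustment. It was 5 from the Feature Extraction signals (2 higher, 3 lower), 1 in the p110 tumors alone, 41 with the mean of all probes, 46 with scan year (transgene) as a block, 100 from the tumor color without the reference (64 higher, 36 lower; 3 shared with the 26), and 255 with the percentage of probes above background as a covariate. Leaving out single tumors gave 0 (without p110-121 or p110-225) to 780 (without p75-129), with 1 without p75-534, 5 without p110-314 or p110-360, 8 without p110-416 and 9 without p75-150. The interaction count of 34 was 9 with median centering and 21 without p110-121. The causes were not tested.

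For list medians, leaving out single tumors gave 0.42 to 0.91 for EMT genes that rise, -1.84 to -0.89 for EMT genes that fall, -2.05 to -0.46 for epithelial markers, -2.84 to -0.57 for luminal markers, -3.00 to -0.10 for milk genes and 0.12 to 1.97 for immune markers. Without the reference, the EMT medians were 0.0096 and -1.03, and from Feature Extraction signals the falling genes were at -2.27. In the p110 tumors alone the immune median was 2.12. The difference in probes above background ran from -14.2 to 5.60 percentage points, with positive values of 2.68 without p110-121, 5.60 without p110-225 and 0.51 without p110-314, and was -16.2 in the p110 tumors alone.

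Among 84 named genes and 2087 comparisons, 19 reversed. These were Vim (-0.28 with scaled arrays, and -0.082 to 1.94 on leaving out tumors), Snai1 (-1.37 from Feature Extraction signals, -0.059 with median centering, -0.52 without the reference), Twist1 (-0.081 from Feature Extraction signals), Cdh2 (-0.16 without the reference), Cux1 (-0.20 with median centering), Wls (0.19 with the mean of probes), Sfrp5 (-0.024 from Feature Extraction signals, -0.033 in Cy3), Lef1 (-0.071 and -0.18) and Tcf7 (-0.58 and -0.34) from Feature Extraction signals and without the reference, Dhh (-0.20), Btn1a1 (0.24) and Kdr (0.35) without the reference, and Retn (-0.39 to 0.94 on leaving out tumors). Median centering moved the median of all genes from 0.02 to -0.09. Glis1 had a positive difference in every setting that kept it, from 0.14 without the reference and 0.83 with median centering to 1.67 in Cy3 alone, and passed with the covariate (adjusted p = 0.0254) and without p75-129 (0.0335) or p110-143 (0.0404), with adjusted p-values up to 0.803 in the other settings. A random block for slide could not be fitted. No paired analysis was possible because each tumor came from a different mouse and the replicate numbers carry no pairing.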

Other observations

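Several solid carcinomas held genes of a tissue or process far above or below the other 8, chosen after their values were seen. In p75-150, skeletal muscle genes stood out, with the myosin heavy chains Myh4 at 9.67 and Myh8 at 8.96 (next of the 9, 0.17 and 0.67) and the troponin gene Tnnc2 at 7.22 (next, 0.46). In p110-225, the B cell genes Ms4a1 (2.16, next -2.84) and Cd79b (0.89, next -2.09), the B cell chemokine gene Cxcl13 (5.75, next 2.39) and the mast cell proteases Cma1 (5.87, next 2.03) and Mcpt4 (5.64, next 2.03) were highest, while the B cell gene Cd79a was at 0.21 there and not measured. The Notch receptor gene Notch4 was at 4.99 in p75-534 (next, 0.86), and the growth factor gene Igf2 at 3.20 in p110-314 (next, 0.61). In p75-129 the interferon-response genes Ifi44 (-3.51, next -1.22) and Oasl2 (-3.07, next -1.08) were lowest. In p110-416, the intestinal microvillus gene Vil1 was at 5.88 (next, 1.53), and Hprt, a housekeeping gene of purine salvage, was at -5.90 (next, -1.28).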
